A study of Mus musculus with 6 samples.

Results

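Sorted macrophages of the omentum (OM 7d) and of the mesenteric adipose tissue (MY 7d), both taken 7 d after intraperitoneal injection of ID8 cells, were compared gene by gene. The comparison took every gene whose deposited FPKM (fragments per kilobase of transcript and per 1000000 aligned reads) was at least 10 in OM 7d, in MY 7d or in both. This held for 7271 of the 23946 genes in the table. Of these, 5815 genes reached 10 FPKM in both libraries, 832 did so in OM 7d alone and 624 in MY 7d alone. The gene with the lowest peak level inside the limit was Npepps at 10.02 FPKM, and the closest one outside was Cox6b2 at 9.99 FPKM. The difference between the tissues, OM minus MY on the log2(FPKM + 1) scale, is called the gap. A gap of 1 is a 2-fold difference on that scale, which understates differences of low genes.

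All mice were C57BL/6. ID8 is a mouse ovarian carcinoma line from that strain. The 6 libraries were naive omentum and naive mesentery, from mice that received no cancer cells, and both tissues at 24 h and at 7 d after the injection. Adipose tissue was dissociated, and live CD45+CD11b+F4/80+ cells were sorted. For the omentum, tissue of 3 mice was pooled into a group before sorting. Each tissue and time point had 1 library, so no difference below has a replicate check or a p-value, and each one describes the libraries it names. What follows from the injection and what differed between the pools of mice cannot be told apart.

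The omentum is a fold of visceral fat that carries milky spots, which are clusters of immune cells around capillaries beneath a layer of mesothelium. It is a preferred site of early ovarian cancer spread in the abdomen, and the mesentery, which is also visceral fat, largely lacks such clusters. Macrophages in these tissues include long-lived resident cells, cells of the peritoneal cavity and cells derived from blood monocytes. They take up debris, present antigen and recruit other leukocytes through chemokines.

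The FPKM values summed to 560290 in OM 7d and 536503 in MY 7d, and the relative depth, estimated from the commonest ratio of low values, was 1.18 times as high in OM 7d as in MY 7d. By the same estimate the naive libraries were shallower, at 0.669 (omentum) and 0.779 (mesentery) times the depth of MY 7d. These estimates are rough, since they spread more widely than the range of reads per sample that the paper gives. How many reads a value rests on is unknown, since FPKM hold no counts. The labelled cell type was checked against 10 macrophage markers, of which 9 reached 10 FPKM in OM 7d or MY 7d. Emr1, which encodes F4/80, was at 26.5 FPKM in OM 7d and 37.5 FPKM in MY 7d, and Csf1r, the receptor that macrophages need for survival, at 103 FPKM and 192 FPKM. Lyz2, a lysozyme gene of macrophages and neutrophils, was at 6791 FPKM and 2571 FPKM. Macrophage genes were thus present in both libraries. Genes of other lineages were also present, and the neutrophil, mesothelial, fibroblast, T cell and NK cell lists had larger median gaps than the macrophage list. In libraries of pooled cells, fewer cells of a type and less RNA per cell cannot be told apart.

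**Figure D1:**
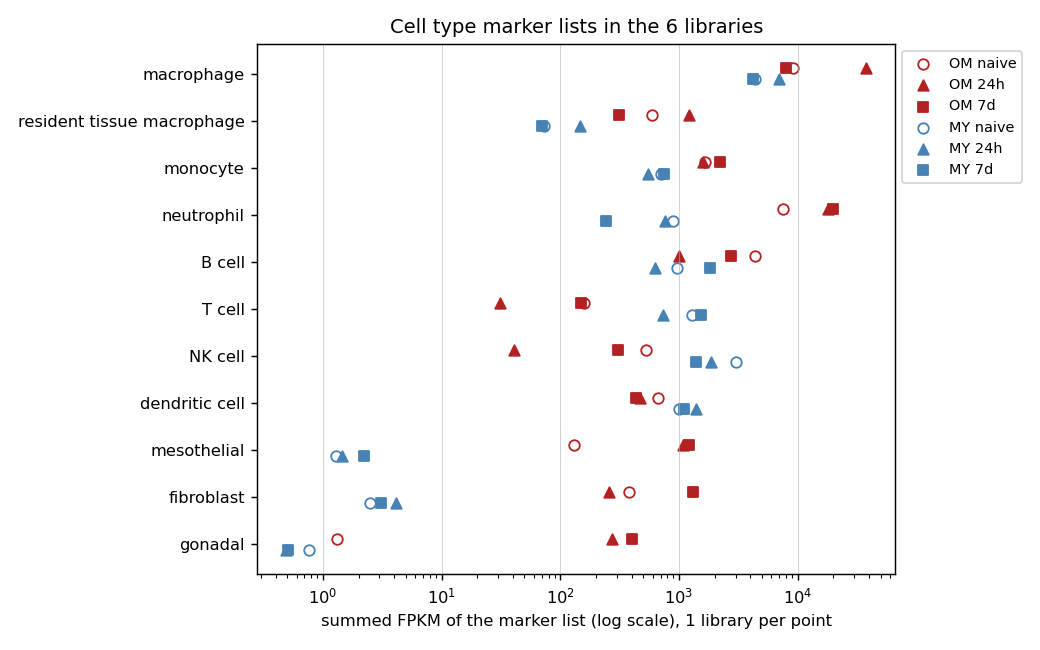
Summed FPKM of 11 marker lists in the 6 libraries, with red for the omentum, blue for the mesentery, and circles, triangles and squares for naive, 24 h and 7 d. The neutrophil list stood at 19873 in OM 7d and 243 in MY 7d, the T cell list lay the other way at 150.0 and 1528, and the mesothelial, fibroblast and gonadal lists were near the left edge in all 3 mesenteric libraries.

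At 7 d, 1168 of the 7271 genes (16.1%) were at least 2-fold apart. Of these, 780 (10.7%) were higher in OM 7d and 388 (5.34%) were lower in it. A gap of at least 4-fold was seen for 475 genes toward the omentum and 122 toward the mesentery. The excess toward the omentum rested on genes that were low in the mesentery. Among the genes at 10 FPKM or more in both libraries, 199 were higher in OM 7d and 193 were lower. Counts within the gene lists below are to be read beside the shares of 10.7% higher and 5.34% lower. For a list gene that reached 10 FPKM in only 1 of the libraries, the filter fixed the direction of its gap. The median gap of the 7271 genes was -0.08, and the SD of their gaps was 1.26. Of 13 short RNA genes among them, 9 were at least 2-fold apart. They are not described further.

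The question put to these genes was how much of their gap was absent between the naive libraries. Over the same 7271 genes, the naive libraries were at least 2-fold apart for 671 genes toward the omentum (9.23%) and 509 genes toward the mesentery (7%), with a median gap of 0.05 and an SD of 0.959. Of the 780 genes higher in OM 7d, 430 had been at least 2-fold higher in the naive omentum as well, 220 had been higher by less than 2-fold, and 130 had shown no naive gap or an opposite one. Thus 350 of them (44.9%) lacked a 2-fold naive gap. Of the 388 genes lower in OM 7d, 278 had been at least 2-fold lower in the naive omentum, 98 lower by less than 2-fold, and 12 had shown no naive gap or an opposite one, so 110 (28.4%) lacked a 2-fold naive gap. The plot of naive classes shows that the omental side held the larger part without a naive counterpart.

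**Figure D2:**
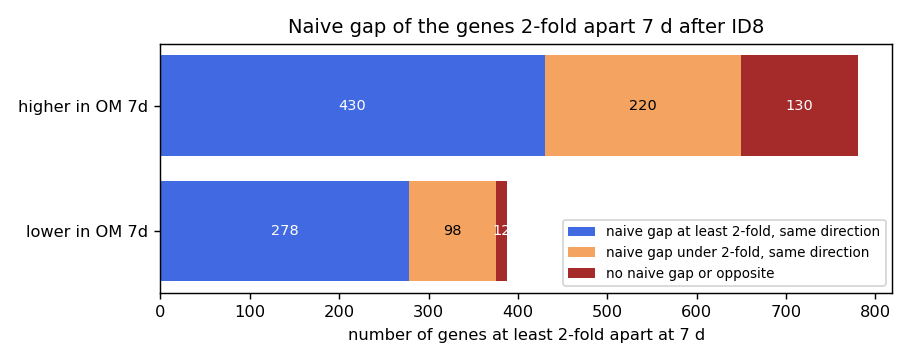
Number of genes at least 2-fold apart between OM 7d and MY 7d, split by the gap of the same genes between the naive libraries. Of the 780 genes higher in OM 7d, 430 had a naive gap of at least 2-fold in the same direction, against 278 of the 388 genes lower in OM 7d.

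By size, 54.3% of the summed gap toward the omentum at 7 d was absent between the naive libraries, against 19.0% of the summed gap toward the mesentery. For each gene, the absent part was the gap at 7 d less the naive gap, held between nothing and the whole gap at 7 d. The median gap of the genes higher in OM 7d was 2.54 at 7 d and 1.19 in the naive libraries, and that of the genes lower in OM 7d was -1.55 at 7 d and -1.61 in the naive libraries. Genes picked for a gap in one pair of libraries tend to show a smaller one in any other pair, so the same sum was made the other way round. Among 7056 genes with at least 10 FPKM in a naive library, 603 (8.55%) were at least 2-fold higher in the naive omentum and 554 (7.85%) were lower. Of the naive gap, 33.7% toward the omentum and 39.0% toward the mesentery was absent at 7 d. The omental share of 54.3% lay above this level, and the mesenteric share of 19.0% lay below it. Genes that entered through OM 7d alone can raise the omental share. Among genes at 10 FPKM or more in both 7 d libraries, a filter chosen after seeing the data, it was 40.9%. No reverse sum was made under that filter, so how much of the omental share came from the choice of genes was not tested.

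**Figure D3:**
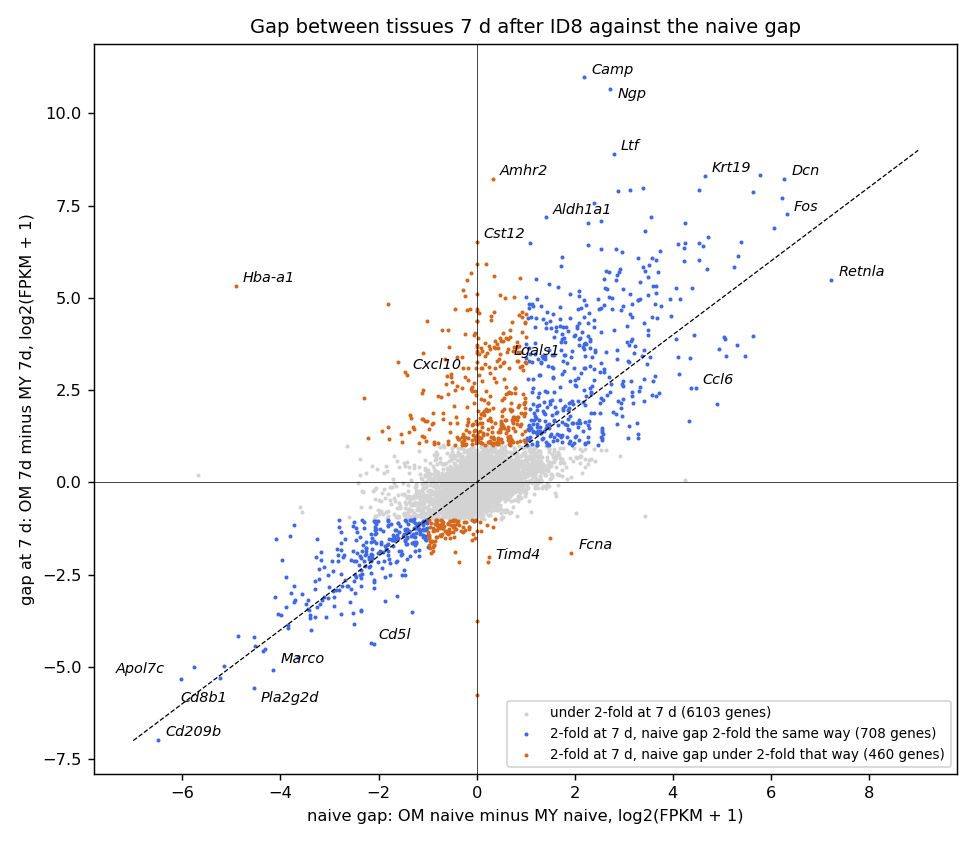
Gap at 7 d (vertical axis) against the naive gap (horizontal axis) for the 7271 genes, both as OM minus MY on the log2(FPKM + 1) scale; the dashed line marks equal gaps. Blue marks genes 2-fold apart at 7 d and in the naive libraries the same way, orange marks genes 2-fold apart at 7 d without such a naive gap, and grey marks the rest. Orange points lie mainly above the horizontal axis, where Amhr2 stood at 8.22 at 7 d and 0.33 in the naive libraries.

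For the 350 genes higher in OM 7d without a 2-fold naive gap, the omentum made up the larger part of the difference in 327 (93.4%). In 280 of them the level in OM 7d was at least 2-fold above that in the naive omentum, while in 15 the level in MY 7d was at least 2-fold below that in the naive mesentery. Both applied to 7 genes. The median difference from the naive library was 1.93 in the omentum and -0.00449 in the mesentery. Genes that entered through a high level in OM 7d alone lean toward such a result. Among the 89 such genes at 10 FPKM or more in both libraries, a filter chosen after seeing the data, the omentum was the larger part in 77 (86.5%) and the median differences were 1.19 and -0.016. For the 110 genes lower in OM 7d without a 2-fold naive gap, the omentum was the larger part in 68 and the mesentery in 42, and in 12 the level in OM 7d was at least 2-fold below that in the naive omentum.

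The libraries taken at 24 h showed most of these differences already. At that time 982 of the 7271 genes (13.5%) were at least 2-fold higher in the omentum and 643 (8.84%) were lower. Of the 350 genes without a 2-fold naive gap, 250 (71.4%) already had a 2-fold gap the same way at 24 h, and of the 110 on the mesenteric side 69 (62.7%) did. With the 24 h libraries as the baseline, 25.3% of the summed gap toward the omentum at 7 d was absent, and 16.4% of that toward the mesentery. A 2-fold gap toward the omentum was present at all 3 time points for 381 genes, and one toward the mesentery for 231.

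The largest gaps toward the omentum were those of neutrophil granule genes. All 8 neutrophil markers at 10 FPKM or more were higher in OM 7d, with a median gap of 7.96 at 7 d and 2.95 in the naive libraries. Of all 7271 genes, 10.7% were higher in OM 7d. Camp, Ngp, Ltf and Mmp8 were below 10 FPKM in MY 7d and entered through OM 7d alone, so the filter fixed their direction. Camp encodes cathelicidin, an antimicrobial peptide of granules, and lies on chromosome 9 of NCBIM37 (mm9) at chr9:109749889-109751970. It was at 440.2, 1294 and 2128 FPKM in the naive, 24 h and 7 d omentum and at 95.7, 31.98 and 0.0529 FPKM in the mesentery. Its level was thus higher at each later time in the omentum and lower at each later time in the mesentery, and its gap was 10.98 at 7 d against 2.19 in the naive libraries. Ngp, another granule protein (chr9:110322254-110325514), was at 970.2, 2352 and 2613 FPKM in the omentum and at 147, 38.04 and 0.608 FPKM in the mesentery. Ltf, which encodes the iron binder lactoferrin (chr9:110921796-110945270), was at 213, 523 and 517 FPKM against 29.96, 8.84 and 0.0848 FPKM. The pattern of both followed that of Camp, apart from Ltf, which was slightly lower in OM 7d than in OM 24h.

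S100a8 and S100a9 encode the subunits of calprotectin, the main cytosolic protein of neutrophils. S100a8 was at 3020.2, 7826 and 8381 FPKM in the omentum and at 288, 219 and 32.1 FPKM in the mesentery. S100a9 was at 5621 FPKM in OM 7d and 22.1 FPKM in MY 7d, a gap of 7.93 against a naive gap of 3.12. Lcn2, a siderophore binder of granules, had a gap of 7.89 against 2.88. Elane, the elastase of primary granules, was at 118, 39.4 and 235 FPKM in the omentum, at 1.41 FPKM in the naive mesentery, and was listed at 0 in MY 24h and MY 7d. Not every neutrophil gene differed in this way. Retnlg, a resistin-like gene of neutrophils, stood at 501 FPKM in OM 7d and 163 FPKM in MY 7d, and its gap of 1.61 was smaller than the naive gap of 3.27. Mmp8 and Mmp9, also on the neutrophil list, had gaps of 3.72 and 2.24 at 7 d and 3.11 and 2.57 in the naive libraries. Csf3r and Cxcr2, the receptors for G-CSF and for neutrophil-attracting chemokines, were below 10 FPKM in both libraries. Csf3r was at 9.36 FPKM in OM 7d and 6.46 FPKM in MY 7d, and Cxcr2 at 3.43 FPKM and 4.2 FPKM. The part of neutrophil RNA in the gap of other genes was not tested.

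**Figure D4:**
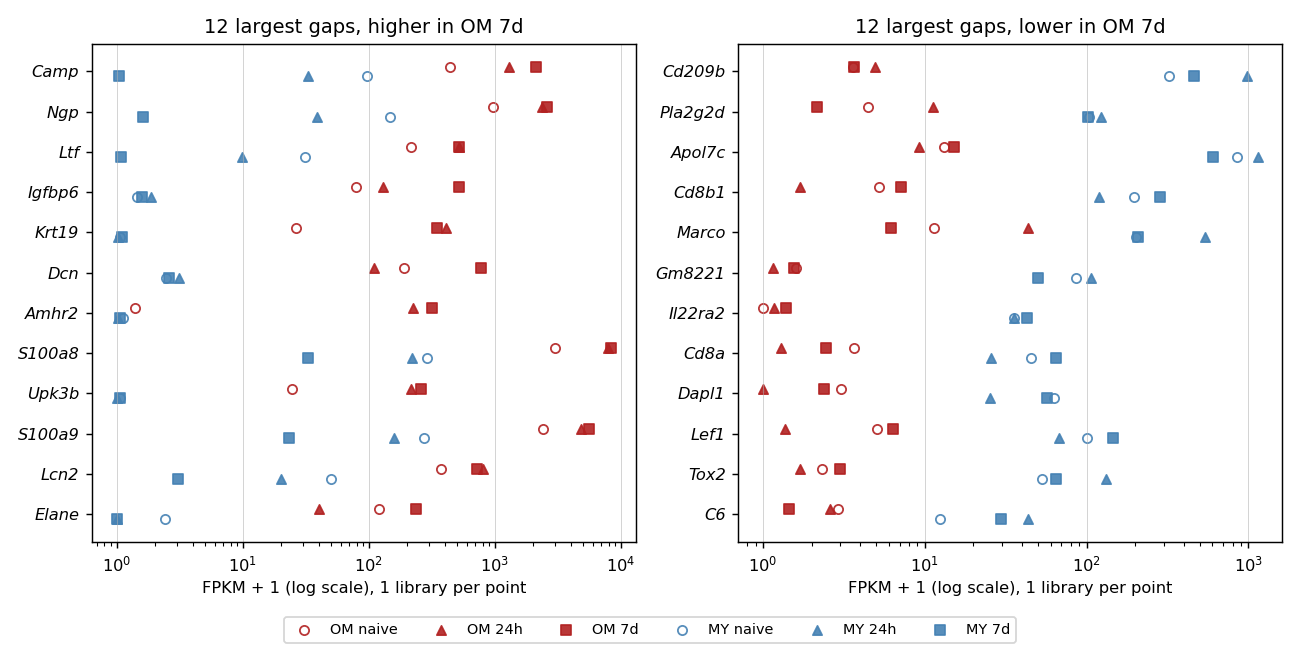
FPKM + 1 of the 12 genes with the largest gap in each direction at 7 d, on a log axis, with 1 point per library (red omentum, blue mesentery; open circles naive, triangles 24 h, squares 7 d). Camp, Ngp and Ltf spread in both tissues, while for Cd209b, Apol7c and Cd8b1 the omental and mesenteric points stayed apart at all 3 times.

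Mesothelial genes were also higher. All 11 markers of the mesothelium, the lining of the peritoneal cavity, were higher in OM 7d, with a median gap of 5.74 at 7 d and 2.90 in the naive libraries. They entered through OM 7d alone, as the list summed to 2.24 FPKM in MY 7d, so the filter fixed their direction. Over all 7271 genes, 10.7% were higher in OM 7d. Their summed FPKM was 132, 1080.4 and 1226 in the naive, 24 h and 7 d omentum and at most 2.24 in the mesentery. Krt19, a keratin, was at 25.4, 406 and 349 FPKM in the omentum and at 0.105 FPKM in MY 7d. Upk3b, a uroplakin made by mesothelial cells, was at 259 FPKM in OM 7d and 0.0669 FPKM in MY 7d. Wt1, the transcription factor of the mesothelium, was at 2.16 FPKM in the naive omentum and 38.1 FPKM in OM 7d, and was listed at 0 in the naive and 7 d mesentery. Over the list, 46.96% of the summed gap was absent between the naive libraries. Krt19, Krt8 and Krt18 are keratins that carcinoma cells can express as well. Of 8 epithelial or carcinoma markers in the table, Krt7 and Cldn3 reached 10 FPKM, at 17.9 and 12.1 FPKM in OM 7d. Epcam was at 9.44 FPKM in OM 7d and 7.72 FPKM in MY 7d, Cdh1 at 1.2 FPKM and 1.24 FPKM, and Pax8 at 0.0745 FPKM and 0.0192 FPKM.

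Genes of fibroblasts and of the extracellular matrix were higher in OM 7d with few exceptions. All 8 fibroblast markers and all 8 collagens at 10 FPKM or more were higher, with median gaps of 6.03 and 5.86 at 7 d and 3.90 and 3.51 in the naive libraries. These members entered through OM 7d alone, as the lists summed to 3.06 and 1.27 FPKM in MY 7d, so the filter fixed their direction. Over all 7271 genes, 10.7% were higher in OM 7d. Of 19 matrix proteins and growth factor binders, 18 were higher, with a median gap of 4.72. The 3 lists share members, among them Col1a1, Col3a1, Dcn and Lum. Dcn, which encodes the proteoglycan decorin, was at 189, 109 and 782 FPKM in the omentum and at 1.46, 2.1 and 1.61 FPKM in the mesentery. Igfbp6, a binder of insulin-like growth factors, was at 514 FPKM against 0.598 FPKM at 7 d. Col3a1, a fibrillar collagen, had a gap of 7.72 at 7 d and 6.22 in the naive libraries. These 3 genes were far apart in every pair of libraries, and only 23.8% of the gap of Dcn was absent between the naive ones. In the mesentery, the fibroblast list summed to 2.49 FPKM in the naive library and 3.06 FPKM at 7 d. What part stromal RNA had in the gap of other genes was not tested.

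A group without a naive counterpart was that of gonadal and steroidogenic genes. Of 6 such genes, 5 reached 10 FPKM, and all 5 were higher in OM 7d, with a median gap of 4.65 against 0.02 in the naive libraries. All 5 were below 1 FPKM in MY 7d and entered through OM 7d alone, so the filter fixed their direction. Over all 7271 genes, 10.7% were higher in OM 7d. The list was drawn up with the high level of Amhr2 in these libraries known. Amhr2, the receptor of anti-Mullerian hormone (chr15:102275798-102285061), was at 0.397 FPKM in the naive omentum, 223 in OM 24h and 315 in OM 7d, and at most 0.114 FPKM in the mesentery. Gata4, a transcription factor of the gonad and heart, was at 33.1 FPKM in OM 7d and was listed at 0 in the naive omentum. Inha, which encodes the alpha subunit of inhibin, was at 24.1 FPKM in OM 7d and was listed at 0 in both naive libraries and in MY 7d. Nr5a1, the regulator of steroidogenic enzymes, was at 14.1 FPKM, and Star, which carries cholesterol into mitochondria, was at 11.1 FPKM. All of these genes were below 1 FPKM in the naive omentum. Foxl2, a marker of granulosa cells, was at 1.2 FPKM in OM 7d and was listed at 0 in the naive libraries and in MY 7d. Over the list, 97.1% of the summed gap was absent between the naive libraries.

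Other genes of this kind were Cst12, Tspan8, Lgals2, Cpe, Akr1cl and Gm11744. Cst12, of the cystatin family of protease inhibitors, was at 25.99 FPKM in OM 24h and 90.5 in OM 7d and was listed at 0 in the other 4 libraries. Tspan8, a tetraspanin, was at 52.1 and 51.3 FPKM in the omentum after injection and was listed at 0 before it. Cpe, a carboxypeptidase that trims peptide hormones, was at 4.67, 133 and 213 FPKM in the omentum and between 3.76 and 5.5 FPKM in the mesentery. These 3 genes were thus present in the omentum at 24 h and 7 d and near their mesenteric level in the naive omentum. Gm11744 was instead lower in the naive omentum than in the naive mesentery, at 0.058 against 2.7 FPKM, and was at 51.1 against 0.814 FPKM at 7 d. The gap of Akr1cl, of the aldo-keto reductase family, was 5.20 at 7 d and -0.28 in the naive libraries.

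Hba-a1 had the largest difference between the gap at 7 d and the naive gap. This alpha globin gene was at 0.0498 FPKM in the naive omentum and 40.7 in OM 7d, against 30.6 and 0.0353 in the mesentery. Its near copy Hba-a2 was at 25.8 FPKM in OM 7d and 108 in MY 7d, the opposite order. Of the 75-base windows of the Hba-a1 coding transcript, 62.2% also occur in Hba-a2, so the division of reads between them is uncertain. The beta globin gene Hbb-b1, which shares 50.6% of its windows with Hbb-b2, was at 66.4 FPKM in OM 7d and 98.8 in MY 7d.

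The macrophage list itself differed little at 7 d. Of its 9 genes, 2 were at least 2-fold higher in OM 7d and none was lower, and the median gap was -0.28 at 7 d and 0.62 in the naive libraries, beside a median of -0.08 over all 7271 genes. The higher ones were Fcgr1, an Fc receptor for IgG (14.98 against 3.65 FPKM), and Lyz2. C1qa, a subunit of complement C1q, was at 259 FPKM in OM 7d and 315 FPKM in MY 7d, while it was at 3282 FPKM in OM 24h.

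Genes of resident tissue macrophages took different courses. Of 6 that reached 10 FPKM, 4 were higher and 1 was lower in OM 7d, with a median gap of 2.204 against 2.97 in the naive libraries. F13a1, a clotting factor subunit of resident macrophages, was at 48.5 FPKM in OM 7d and 6.44 FPKM in MY 7d, with a gap of 2.73 against 3.59 in the naive libraries. The summed FPKM of the whole list was 599 in the naive omentum, 310.3 in OM 7d and between 70.3 and 147 in the mesentery. A large part of the sum in OM 7d was Gas6, at 26.3 FPKM in the naive omentum and 139 FPKM in OM 7d. Its gap was 6.03 at 7 d, the largest of the list, and 3.65 in the naive libraries. Every other gene of the list was lower in OM 7d than in the naive omentum. Several genes that were higher in the naive omentum had a smaller gap at 7 d, or none toward the omentum. Cd163, the haptoglobin-hemoglobin scavenger receptor, was at 18.2 against 1.33 FPKM in the naive libraries and at 3.13 against 3.77 FPKM at 7 d. Lyve1, a hyaluronan receptor, was at 53.5 FPKM in the naive omentum and 5.96 FPKM in OM 7d. Fcrls, an Fc receptor-like gene, was at 105 and 8.27 FPKM, and Vsig4, a complement receptor that is not on this list, at 27.8 and 1.53 FPKM. Vsig4 was named after its values were seen. Their gaps at 7 d were 1.77 for Lyve1, 3.07 for Fcrls and 1.34 for Vsig4. Timd4, a receptor for phosphatidylserine, had no 2-fold gap in the naive libraries (27.8 against 23.5 FPKM) and was at 5.3 against 27.3 FPKM at 7 d, a gap of -2.17.

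Among genes of large peritoneal macrophages, Gata6, the transcription factor that defines these cells, was at 2.06, 15.9 and 36.7 FPKM in the omentum and at most 0.298 FPKM in the mesentery. Mesothelial cells express Gata6 as well. Thbs1, a matrix protein, was at 22.96 against 0.435 FPKM at 7 d and Fn1, which encodes fibronectin, at 57.6 against 2.99 FPKM, and both are made by stromal cells too. Alox15 and Prg4 had smaller gaps. Alox15, a lipoxygenase, was at 36.1 FPKM in OM 7d and 15.5 FPKM in MY 7d, and Prg4, which encodes lubricin, was at 1.89 and 0.807 FPKM. Cd5l, a secreted scavenger protein, was lower in the omentum, at 1.4 against 47.7 FPKM. In all, 4 of the 6 members of the list at 10 FPKM or more were higher in OM 7d and 1 was lower, and the median gap was 2.52 against 1.15 in the naive libraries. The remaining member, Icam2, was at 32.2 against 56.7 FPKM at 7 d, a gap of -0.80 against 0.58 in the naive libraries. Prg4, below 10 FPKM in both, is not a member.

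Of 7 monocyte genes, 4 were higher and 2 were lower in OM 7d, with a median gap of 1.36 against -0.16 in the naive libraries. Ccr2, the receptor through which monocytes leave the marrow, was at 112 against 27.2 FPKM, much as in the naive libraries (137 against 36.6 FPKM). Ly6c2, the surface antigen of inflammatory monocytes, was at 164 against 184 FPKM in the naive libraries and at 391 against 152 FPKM at 7 d. Its naive gap was thus below 0, and its gap at 7 d was 1.36. Ly6c2 shares 22.7% of its 75-base windows with Ly6c1.

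Chemokines attract leukocytes through matching receptors, with CC ligands acting mainly on monocytes and lymphocytes and many CXC ligands on neutrophils. Of 12 CC ligands at 10 FPKM or more, 10 were higher in OM 7d and 2 were lower, with a median gap of 2.46 at 7 d and 0.41 in the naive libraries. Of all 7271 genes, 10.7% were higher in OM 7d and 5.34% were lower. Ccl1, Ccl2, Ccl3, Ccl7 and Ccl9 entered through OM 7d alone, so the filter fixed their direction. Ccl2, the main ligand of Ccr2, was at 55.2 FPKM in OM 7d and 0.403 FPKM in MY 7d, and Ccl7, which shares that receptor, was at 26.4 and 0.239 FPKM. Both had been at least 2-fold higher in the naive omentum. For 5 of the 10, however, the naive gap was under 2-fold. Ccl1, a ligand of Ccr8, was listed at 0 in the naive omentum and was at 10.6 FPKM in OM 7d. Ccl17, a ligand of Ccr4, was at 20.9 against 20.98 FPKM in the naive libraries and at 111 against 20.5 FPKM at 7 d. Ccl4 was close to its naive level in OM 7d (89.2 and 96.4 FPKM) but lower in MY 7d (16.4 FPKM) than in the naive mesentery (77.9 FPKM), and Ccl3 was at 47.04 against 7.96 FPKM at 7 d.

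The gap of Ccl6 and Ccl9, both ligands of Ccr1, had narrowed. Ccl6 was 4.46 higher in the naive omentum and 2.57 higher in OM 7d, and Ccl9 was at 96.03 against 8.38 FPKM at 7 d, a gap of 3.37 against 4.34. Ccr1 itself had a gap of 2.94 at 7 d and 4.13 in the naive libraries. Toward the mesentery stood Ccl22, another ligand of Ccr4, at 62.7 against 256 FPKM, and Ccl5 at 256 against 928 FPKM. Both had been at least 2-fold lower in the naive omentum too. Ccl17, Ccl4, Ccl3 and Ccl6, and Cxcl10 and Isg15 below, are members of the lists that were named after their values were seen.

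Of 9 CXC, CX3C and XC ligands, 7 were higher in OM 7d and none was lower, with a median gap of 2.98 against 2.60 in the naive libraries. Among all 7271 genes, 10.7% were higher in OM 7d and 5.34% were lower. Cxcl2, an attractant of neutrophils, was at 51.95, 262 and 71.7 FPKM in the omentum and at most 1.45 FPKM in the mesentery. Cxcl1, which acts on the same receptor, was at 16.5 against 0.229 FPKM. Pf4, a chemokine of platelets and some macrophages, was at 167 FPKM in the naive omentum and 25.8 in OM 7d, against 1.52 in MY 7d. Of 14 chemokine receptors, 5 were higher and 6 were lower in OM 7d, and the median gap was 0.36. The lower ones included Ccr7, which guides dendritic cells and naive T cells to lymph nodes, at 116 against 661 FPKM, and Cxcr6, a receptor of effector T cells and NKT cells, at 7.94 against 45.1 FPKM.

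Interferon-induced genes lay toward the mesentery in the naive libraries and in part toward the omentum at 7 d. Of 14 type I interferon-stimulated genes, 6 were higher and 1 was lower in OM 7d, while 5 had been at least 2-fold lower and none 2-fold higher in the naive omentum. The median gap was 0.67 at 7 d and -0.80 in the naive libraries. Cxcl10, a ligand of Cxcr3 that interferons induce, was at 12.1, 124 and 116 FPKM in the omentum and at 35.1, 21.2 and 13.9 FPKM in the mesentery. Isg15, a ubiquitin-like protein, was at 23.4, 74.1 and 57.04 FPKM in the omentum and at 69.6, 41.5 and 26.1 FPKM in the mesentery. Ifit1, an RNA-binding antiviral protein, was at 3.36, 11.2 and 12.9 FPKM against 9.53, 3.76 and 4.15 FPKM. In all 3 genes the naive omentum was below the naive mesentery and both later omental libraries were above their mesenteric counterparts. Oasl2, of the oligoadenylate synthetase family, had a gap of 3.09 at 7 d and 0.66 in the naive libraries. Usp18, which removes Isg15 from proteins, stayed lower in the omentum, at 19.2 against 41.5 FPKM. Of 13 GTPases that interferon-gamma induces, 1 was higher and 1 was lower in OM 7d, and 7 had been lower in the naive omentum, with a median gap of -0.14 at 7 d. Iigp1 was at 23.8 against 6.8 FPKM and Gbp8 at 6.82 against 27.8 FPKM.

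The promoters of Cxcl10, Isg15 and Ifit1 are shown because these genes turned direction, and that of Apol7c because this gene had one of the largest gaps toward the mesentery. All 4 were picked after their values and windows were seen, Apol7c because it carries the same letters. The windows run from 250 bases before to 50 bases after the start of the RefSeq transcript in GRCm38.p6, 5′ to 3′ on the strand of the gene. Capitals mark 2 copies of GAAA with any 2 bases between them, the core of the interferon-stimulated response element, searched on both strands, and overlapping matches run together. Cxcl10 lies on the minus strand (chr5:92348840-92349139), Isg15 on the minus strand (chr4:156200769-156201068), Ifit1 on the plus strand (chr19:34640639-34640938) and Apol7c on the minus strand (chr15:77533266-77533565).
Cxcl10: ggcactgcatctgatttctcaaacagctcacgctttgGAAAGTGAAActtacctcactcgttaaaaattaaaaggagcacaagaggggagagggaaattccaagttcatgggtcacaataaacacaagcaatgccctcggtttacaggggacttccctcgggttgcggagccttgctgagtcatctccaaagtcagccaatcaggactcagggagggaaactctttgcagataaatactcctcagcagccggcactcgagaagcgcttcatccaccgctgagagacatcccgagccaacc
Isg15: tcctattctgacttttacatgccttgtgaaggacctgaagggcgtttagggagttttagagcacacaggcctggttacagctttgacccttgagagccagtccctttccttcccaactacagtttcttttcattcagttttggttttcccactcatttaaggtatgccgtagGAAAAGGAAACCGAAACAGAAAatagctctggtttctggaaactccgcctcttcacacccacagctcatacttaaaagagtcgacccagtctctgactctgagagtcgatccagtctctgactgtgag
Ifit1: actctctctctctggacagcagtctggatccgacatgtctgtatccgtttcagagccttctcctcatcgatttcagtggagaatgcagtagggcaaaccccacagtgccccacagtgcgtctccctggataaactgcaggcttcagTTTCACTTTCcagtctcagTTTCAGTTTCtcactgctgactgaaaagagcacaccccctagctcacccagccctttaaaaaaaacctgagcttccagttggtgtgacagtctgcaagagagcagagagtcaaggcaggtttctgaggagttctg
Apol7c: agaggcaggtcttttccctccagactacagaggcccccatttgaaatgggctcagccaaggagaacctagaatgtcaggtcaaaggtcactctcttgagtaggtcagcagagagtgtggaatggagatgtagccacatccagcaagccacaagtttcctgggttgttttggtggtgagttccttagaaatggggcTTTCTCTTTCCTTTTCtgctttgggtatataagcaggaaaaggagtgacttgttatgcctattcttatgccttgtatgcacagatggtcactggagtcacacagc
The letters occurred 1 time in the Cxcl10 window and 3 times in that of Isg15 on the gene's own strand, and 2 times in the Ifit1 window and 2 times in that of Apol7c on the other strand. Of all 32851 RefSeq promoter windows, 3.44% held a match. By gene, it was 3.99% of 27025 genes with a window, 4.37% of the 5578 genes of the comparison that had one, 5.98% of the 552 genes higher in OM 7d and 5.02% of the 279 lower ones. Of the type I interferon-stimulated genes with a window, whether or not they reached 10 FPKM, 8 of 15 held the letters, as did 9 of 9 interferon-gamma inducible GTPases and 6 of 9 apolipoprotein L genes. Iigp1 and Gbp8 had no window. Of those 6 apolipoprotein L genes, Apol7c and Apol10b are in the comparison.

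Immediate early genes, which are transcribed within minutes of a stimulus and also during tissue dissociation, were higher in the omentum throughout. Of 18 such genes, 16 were higher in OM 7d, with a median gap of 2.92 against 2.53 in the naive libraries. The share of all 7271 genes that was higher in OM 7d was 10.7%. Fos, a subunit of AP-1, was at 729.8, 1715 and 1129 FPKM in the omentum and at 8.17, 9.52 and 6.37 FPKM in the mesentery. Only 13.3% of the summed gap of the list was absent between the naive libraries. Il1b, the secreted cytokine interleukin-1 beta, was at 163 against 12.2 FPKM at 7 d, and Tnf at 15.04 against 4.32 FPKM. Cd14, the co-receptor for lipopolysaccharide, was at 126 against 11.2 FPKM, with a larger gap in the naive libraries (4.09) than at 7 d (3.39). A part of dissociation in these gaps was not tested.

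Genes of alternative activation, the state macrophages take under interleukin-4, were divided. Of 8, 5 were higher and 2 were lower in OM 7d, with a median gap of 2.10 against 1.10 in the naive libraries. Retnla, a resistin-like protein of such macrophages, was at 3681 FPKM in the naive omentum and 311 in OM 7d, against 23.6 and 5.97 FPKM in the mesentery. Its level was lower at 7 d in both tissues, and its gap was 5.49 against 7.22. Mgl2, a lectin of the same state, was at 57.4 against 3.38 FPKM, also with a smaller gap than in the naive libraries. Chil3, a chitinase-like protein that monocytes and neutrophils also carry, went the other way, at 157 and 629 FPKM in the naive and 7 d omentum and 36.2 and 18.1 FPKM in the mesentery.

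Among lipid-associated and scavenger genes, 6 of 17 were higher and 4 were lower in OM 7d, with a median gap of 0.42. Spp1, which encodes osteopontin, was at 7.35 and 41.9 FPKM in the naive and 7 d omentum and at 1.66 FPKM in MY 7d. Trem2, a lipid receptor of macrophages, was at 18.9 against 0.467 FPKM. Marco, a scavenger receptor for particles, was far lower in the omentum, at 10.5, 42.3 and 5.17 FPKM against 202, 537 and 208 FPKM. Of 16 complement genes, 8 were higher and none was lower, with a median gap of 0.53. The shares of all 7271 genes were 10.7% higher and 5.34% lower in OM 7d. C3, the central component, was at 124 against 24.1 FPKM in the naive libraries and at 401 against 27.2 FPKM at 7 d. C6, a terminal component not on that list, stood the other way, at 0.442 FPKM in OM 7d and 28.8 FPKM in MY 7d.

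Galectins and retinoid genes held further members with a wider gap at 7 d than in the naive libraries. Lgals1, which encodes galectin-1, a lectin that dampens T cell responses, was at 611, 2009 and 2560.1 FPKM in the omentum and at 423, 242 and 269 FPKM in the mesentery. Its gap was 3.25 at 7 d, of which 83.7% was absent between the naive libraries. Lgals7, a galectin of epithelia, was at 132 against 0.475 FPKM at 7 d, after a naive gap of 1.09. Aldh1a1, an enzyme that makes retinoic acid, was at 1.83 FPKM in the naive omentum and 173 FPKM in OM 7d, with a gap of 7.18 against 1.41, and Stra6, a receptor for retinol binding protein, was at 0.561 and 44.5 FPKM. Aldh1a2, which makes retinoic acid too, was lower in OM 7d than in MY 7d, at 31.2 against 64.4 FPKM. Of 5 retinoid genes, 4 were higher and 1 was lower, and the median gap was 3.50 against -0.10 in the naive libraries. Among all 7271 genes, 10.7% were higher in OM 7d and 5.34% were lower.

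All 6 genes of the Wnt pathway at 10 FPKM or more were higher in OM 7d, with a median gap of 3.20. Rspo1, which strengthens Wnt signals and is also on the mesothelial list, was at 60.4 against 0.173 FPKM, Wnt4 at 22.3 against 0.0455 FPKM and Wnt6 at 32.8 against 2.5 FPKM. Rspo1, Wnt4 and Wnt6 thus entered through OM 7d alone, so the filter fixed their direction. Of all 7271 genes, 10.7% were higher in OM 7d. Tgfb3, a ligand of the TGF-beta family, was at 2.77 FPKM in the naive omentum, 32.97 in OM 7d and 1.73 in MY 7d. Id1, a target of BMP signals, had a gap of 4.04 against 0.53 in the naive libraries. Hspb1, a small heat shock protein of epithelial and mesothelial cells, was at 19.9 and 196 FPKM in the naive and 7 d omentum and at 0.357 FPKM in MY 7d. Whether macrophages or other sorted cells carried these transcripts was not tested. From the naive to the 7 d omentum, the summed mesothelial markers went from 132 to 1226 FPKM. The summed fibroblast markers went from 380 to 1305 FPKM and the summed gonadal genes from 1.31 to 399 FPKM.

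Toward the mesentery, the largest gap was that of Cd209b, a lectin of marginal zone macrophages also named SIGN-R1 (chr8:3917657-3926844). It was at 2.59, 3.95 and 2.63 FPKM in the omentum and at 324, 976 and 458 FPKM in the mesentery, and 6.95% of its gap was absent between the naive libraries. Its relative Cd209a, a lectin of dendritic cells and monocytes, stood the other way, at 82.04 against 13.2 FPKM. Of 4 Cd209 family members in the comparison, 1 was higher and 3 were lower in OM 7d, with a median gap of -2.60. Pla2g2d, a secreted phospholipase of lymphoid dendritic cells and macrophages, was at 1.15 against 101 FPKM at 7 d and 3.44 against 103 FPKM in the naive libraries.

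Apol7c, of the apolipoprotein L family, had a gap of -5.32 at 7 d and -6.03 in the naive libraries, so that none of it was absent there. It was at 12.1, 8.26 and 14.1 FPKM in the omentum and at 853, 1144 and 604 FPKM in the mesentery. All 3 family members at 10 FPKM or more were lower in OM 7d, with a median gap of -3.87. Apol7b was at 1.42 against 22.9 FPKM and Apol10b at 1.24 against 31.7 FPKM. Both entered through MY 7d alone, so the filter fixed their direction. Among all 7271 genes, 5.34% were lower in OM 7d. Apol7b shares 64.4% of its 75-base windows with other family members, and the neighbouring gene model Gm8221, also among the 12 largest gaps, shares 36.4%, so their levels are uncertain. Nr1h3, which encodes the oxysterol receptor LXR-alpha, was at 10.3 against 70.4 FPKM, and Il4i1, a secreted amino acid oxidase, at 43.8 against 339 FPKM. Vcam1, an adhesion molecule of spleen and lymph node macrophages and of endothelium, was at 10.3 against 49 FPKM. All of them were at least 2-fold lower in the naive omentum as well.

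T cell genes were lower in the omentum at 7 d, and had been in the naive libraries. All 10 T cell markers at 10 FPKM or more were lower in OM 7d, with a median gap of -3.12 against -2.86 in the naive libraries. Of all 7271 genes, 5.34% were lower in OM 7d. Cd8a, Cd8b1, Trat1, Cd4 and Bcl11b were below 10 FPKM in OM 7d and entered through MY 7d alone, so the filter fixed their direction. Cd8b1, the beta chain of the CD8 co-receptor (chr6:71272830-71287471), was at 4.2, 0.688 and 6.15 FPKM in the omentum and at 195, 118 and 284 FPKM in the mesentery. Cd8a, the alpha chain next to it on chromosome 6, was at 1.44 against 64.01 FPKM, and Cd3e, of the T cell receptor complex, at 28.4 against 256 FPKM. Cd4 was at 8.77 against 68.1 FPKM. Lef1, a transcription factor of naive T cells, was at 5.37 against 145 FPKM, and Tox2, of the TOX family of lymphocyte factors, at 1.99 against 63.5 FPKM. Both were at least 2-fold lower in the omentum at every time. The defining T cell markers were not at 0 in OM 7d, where the list summed to 150.0 FPKM against 1528 FPKM in MY 7d.

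Of 9 NK cell markers, 8 were lower in OM 7d, with a median gap of -2.06 against -2.39 in the naive libraries. Among all 7271 genes, 5.34% were lower in OM 7d. Klrb1c and Klre1 entered through MY 7d alone, so the filter fixed their direction. Gzma, a granzyme, was at 142 and 57.4 FPKM in the naive and 7 d omentum and at 1092 and 449 FPKM in the mesentery. Ncr1, an activating receptor of NK cells, was at 11.7 against 54.4 FPKM. Of 14 Ly49 and NK lectin receptors, 10 were lower and 1 was higher, with a median gap of -1.44. Of 9 cytotoxic granule genes 6 were lower, with a median gap of -2.05. Both lists share members with the NK markers, among them Klrb1c, Ncr1, Gzma, Gzmb and Prf1. The list of NK markers summed to less than its naive level at 7 d in both tissues, from 529.6 to 309.8 FPKM in the omentum and from 3043 to 1395 FPKM in the mesentery. None of the gap of Gzmb, Prf1 or Ncr1 was absent between the naive libraries.

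Dendritic cell genes were lower in part. Of 8, 4 were lower and 1 was higher in OM 7d, with a median gap of -1.16. Siglech, a receptor of plasmacytoid dendritic cells, was at 1.03 against 30.1 FPKM, and Itgae, the integrin CD103, had a gap of -2.10. Batf3 and Irf8, factors of conventional dendritic cells, had gaps of -0.24 and -0.74. B cell genes had lost most of a naive gap toward the omentum. Of 9, 7 had been at least 2-fold higher in the naive omentum, but 1 was higher and 2 were lower at 7 d, and the median gap was 0.51 against 2.03. Cd79a, a subunit of the B cell receptor, was at 1551 against 336 FPKM in the naive libraries and at 983 against 635 FPKM at 7 d. Fcer2a, the low-affinity IgE receptor CD23, was lower in OM 7d, at 7.31 against 93.04 FPKM.

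Among the 110 genes lower in OM 7d without a 2-fold naive gap, the largest difference between the gap at 7 d and the naive gap was that of Fcna. This gene encodes ficolin A, a lectin that activates complement, and was at 204, 269 and 22.6 FPKM in the omentum and at 52.99, 178 and 88.1 FPKM in the mesentery. It had thus been 1.93 higher in the naive omentum and was at -1.92 at 7 d. Lyz1, a second lysozyme gene, was at 377 against 133 FPKM in the naive libraries and at 55.6 against 161 FPKM at 7 d. Cr2, the complement receptor CD21 of B cells, was at 3.18 against 17.8 FPKM, and Cd226, a co-stimulatory receptor, at 5.21 against 13.4 FPKM. The omentum was the larger part of the difference for Fcna, Lyz1, Timd4 and Cd226, whereas for Cr2 both tissues had moved by less than 2-fold.

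**Figure D5:**
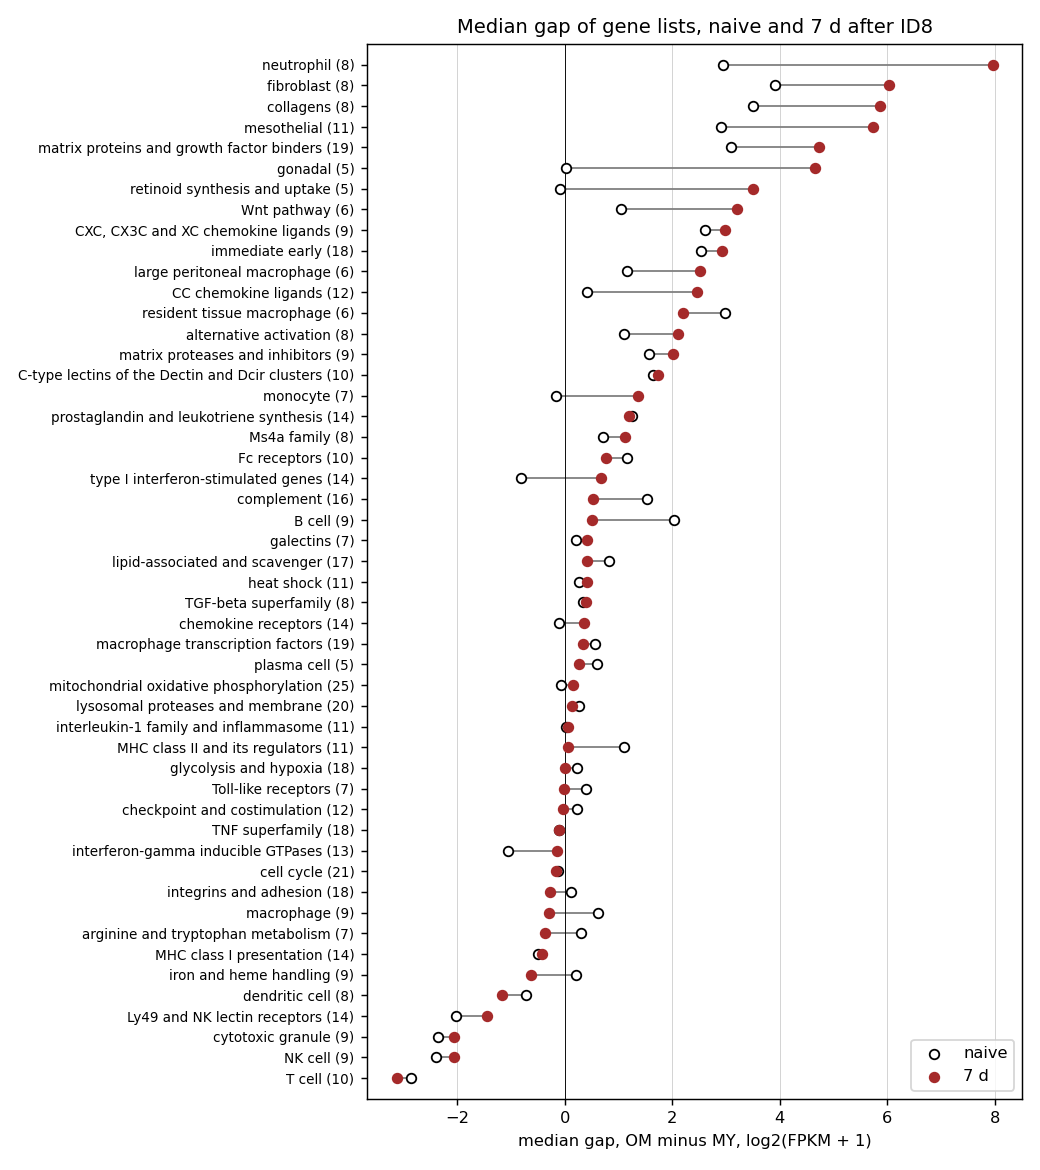
Median gap of gene lists with at least 5 genes in the comparison (number in brackets), as OM minus MY on the log2(FPKM + 1) scale, with open circles for the naive libraries and filled circles for 7 d. The neutrophil list had the largest median at 7 d, 7.96, the T cell list the lowest, -3.12, and the cell cycle and oxidative phosphorylation lists lay near 0 at both times.

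Many genes of basic cell functions did not pass the 2-fold limit in either direction. None of 21 cell cycle genes, 25 genes of oxidative phosphorylation and 14 genes of MHC class I presentation was at least 2-fold apart at 7 d, and their median gaps were -0.16, 0.15 and -0.42. Of 11 genes of MHC class II and its regulators, which serve the display of antigen to CD4 T cells, only H2-Eb2 was 2-fold apart (6.58 against 15.3 FPKM). Their median gap was 0.06 at 7 d, while it had been 1.10 in the naive libraries, where 7 of the 11 were higher in the omentum. Of 18 glycolysis and hypoxia genes, 2 were higher and 1 was lower, with a median gap of 0.01. Vegfa, the vascular growth factor, was at 2.42 and 11.1 FPKM in the naive and 7 d omentum and at 0.351 FPKM in MY 7d.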

How the data were processed

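RNA of sorted CD45+CD11b+F4/80+ cells was measured in 6 libraries, 1 for each tissue and time point. Read quality was assessed by the authors in FastQC 0.11.4, alignment used STAR 2.4.2a on the mouse genome NCBI37/mm9 (gene models from UCSC), and Cufflinks gave the FPKM. The deposited table holds FPKM by gene symbol, with no counts, so no count test was run. From it, gaps were taken as differences of log2(FPKM + 1), thus with a pseudocount of 1, for each gene that reached 10 FPKM in OM 7d or MY 7d, and those of 2-fold or more were counted (Python 3.11.15, numpy 2.4.6, pandas 2.3.3, matplotlib 3.10.9). No test between conditions is possible with 1 library each. The genes and lists were chosen with earlier results of these data known. Named in each direction were the 12 largest gaps at 7 d (short RNA genes left out), the 8 genes with the largest gap at 7 d minus naive gap among those 2-fold apart at 7 d but not in the naive libraries, the 6 whose smallest gap over the 3 times was largest, and up to 4 per list, besides any cell type marker. Other genes are said to have been named after their values were seen. Lists were described by counts and, for most, the median gap, to be read beside those of all 7271 genes. Positions are from GENCODE M1 on NCBIM37, which matched 315 of 318 named genes. It is not the annotation of the authors, and the promoter windows are RefSeq sequences of GRCm38.p6, with no position carried between the builds. Alternatives were other pseudocounts, filters, thresholds, baselines and rescalings. A few named genes are not reported here.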

Additional observations from a re-analysis of the deposited data

Results flagged for a closer look

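For 9 of the genes named by the rule, the omentum and the mesentery had moved in opposite directions by at least 2-fold between the naive library and 7 d. The values are the gap at 7 d minus the naive gap, on the log2(FPKM + 1) scale, and none of these differences was tested, since each condition had 1 library. Among neutrophil granule and calprotectin genes the value was 8.79 for Camp, 7.95 for Ngp, 6.11 for Ltf, 4.60 for S100a8 and 4.81 for S100a9. In each of these genes the omentum was higher and the mesentery lower at 7 d than in the naive library. Not every neutrophil marker went this way, since Retnlg was at 40.5 FPKM in the naive mesentery and 163 FPKM in MY 7d. Mmp8 and Mmp9 were near their naive level in the omentum, at 35.4 against 38.4 FPKM and 64.1 against 64.8 FPKM. Hba-a1 had a value of 10.2, with the caution that its reads cannot be told from those of Hba-a2 over most of the transcript. The gene model Gm11744 had a value of 6.65 and Ifit1, an interferon-stimulated gene, one of 2.71. Of the 9, C6 was the one gene lower in the omentum and higher in the mesentery, with a value of -2.28. Cxcl10, which the rule did not name, also moved in opposite directions, by 3.16 in the omentum and -1.28 in the mesentery.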

How the results depend on the processing

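No paired analysis was possible because no group held a second library to pair. Without replicates, a count or share was taken as unmoved within 1.5 times of its value. Of 82 values of the main counts and shares under alternatives, 52 stayed within that tolerance. At an FPKM of at least 1, and likewise with no filter, 2494 genes were 2-fold apart (1842 higher and 652 lower in OM 7d), and 1176 of the higher and 185 of the lower ones lacked a 2-fold naive gap. At an FPKM of at least 30 these numbers were 585, 369, 216, 123 and 70. With a mean of 10 over the 4 naive and 7 d libraries, 468 genes were higher and 161 of them lacked a 2-fold naive gap. With an FPKM of at least 10 in both libraries, a filter chosen after seeing the data, 392 genes were apart (199 higher and 193 lower), and 89 of the higher ones lacked a 2-fold naive gap. Rescaling each library to a sum of 1000000 gave 541 higher genes without one. It shifted the median gap by -0.23 in the naive libraries and by -0.06 at 7 d. At 1.5-fold, 2046 genes were apart and 926 were lower. At 4-fold, 597 were apart, 475 higher and 122 lower. The omental share absent in the naive libraries lay between 40.9% and 61.01% over the filters, pseudocounts and rescalings, and was 25.3% with the 24 h libraries as the baseline. The mesenteric share lay between 16.05% and 21.1% over the same alternatives, and was 7.88% without limits for each gene and 6.88% as a median over genes. A turn of direction was counted only where the main gap or list median was at least 2-fold. Of 2544 gaps of single genes, 490 moved and 0 turned direction. This 0 is no check, since another pseudocount cannot turn a gap and the rescalings shifted median gaps by less than 2-fold. Of 575 list medians, 90 moved and 5 turned direction. With no filter the platelet list had a median of -0.058, the Cd209 family one of 0.10 and the apolipoprotein L family one of 0.25, and with an FPKM of at least 10 in both libraries the Cd209 family stood at 2.55 and the retinoid list at -1.02. Fewer or more genes of low level enter under these filters. The depth behind single values is not given by FPKM.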
